A study of Homo sapiens with 2 samples.

Results

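The genes described here encode the proteins that license replication origins, unwind DNA at the fork, copy it and repackage it into chromatin. They were 50 genes chosen by name as origin licensing, helicase, polymerase, clamp and chromatin assembly genes, out of 57351 gene symbols in the deposited table, and each of the 50 had a single entry. RNA-seq was run on 22Rv1, a human prostate cancer cell line. The shCON library came from cells carrying an shRNA vector control and the shEIF3F library from cells carrying an shRNA against EIF3F, which encodes the f subunit of the translation initiation factor eIF3. With a single library for each group, differences below could not be set against replicate error and no test was run. How long the hairpin was expressed, and whether the cells were pooled or a clone, is not given in the sources used here. Off-target effects of the single hairpin and effects of losing EIF3F cannot be told apart.

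Before S phase, the origin recognition complex binds DNA and, with CDC6 and CDT1, loads the ring-shaped MCM2-7 helicase onto it in an inactive form, a step called licensing. At the start of S phase the DBF4-dependent kinase acts on the loaded rings, and CDC45 and the GINS complex join them to form the active helicase, called CMG. Polymerase alpha-primase then lays primers, polymerases epsilon and delta extend the strands while held by the PCNA clamp, and many of the genes are transcribed in a cell cycle wave driven by E2F transcription factors.

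Values are TPM, an abundance scaled to transcript length and to the library's total, from which read numbers and hence depth cannot be known. EIF3F went from 991 TPM in the control to 17.0 TPM with the hairpin, in the direction of the labels. The luminal epithelial markers KRT8 (301 and 347 TPM) and KRT18 (173 and 336 TPM) were present in both libraries. Endothelial markers CDH5 and VWF were listed at 0 in both libraries, and all 3 endothelial markers summed to 0.01 and 0.05 TPM. Of the leukocyte markers, PTPRC stood at 0.11 and 0.03 TPM, CD14 at 0.08 and 0.41 TPM and CD3E at 0 and 0.03 TPM. The 4 stromal markers summed to 39.9 and 26.9 TPM, most of it LUM and DCN, with none at 0, and their part in the results was not tested. The log2 ratio used throughout is log2((shEIF3F TPM + 1) / (shCON TPM + 1)), and a gene at -1 or less was counted as at least 2-fold lower; this limit is one of size only.

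All 50 replication genes had a lower TPM in shEIF3F than in shCON as deposited, although ORC3 and ORC4 moved above 0 after ratios were shifted to an overall median of 0 (centring) or the libraries were rescaled without the 100 most abundant genes. Together the 50 genes summed to 2980 TPM in shCON and to 539 TPM, or 18.1% of that, in shEIF3F. The level left in shEIF3F ranged from 0.407% of shCON for ORC1 to 86.8% for ORC4, with a median of 14.8%. It was under 10% for 17 genes and under 50% for 46. The shares of all genes under these limits, or lower by any amount, are not given here. With 1 TPM added, 25.5% of all 13304 genes tested were at least 2-fold lower, and the median log2 ratio of all genes tested was -0.36. In shEIF3F 12 of the 50 genes were listed below 1 TPM, against 0 in shCON. Over the whole deposited table, gene symbols at 1 TPM or more numbered 13391 in shCON and 12601 in shEIF3F. In RNA from whole cultures, fewer cells in S phase and less of each transcript per cell cannot be told apart.

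**Figure D1:**
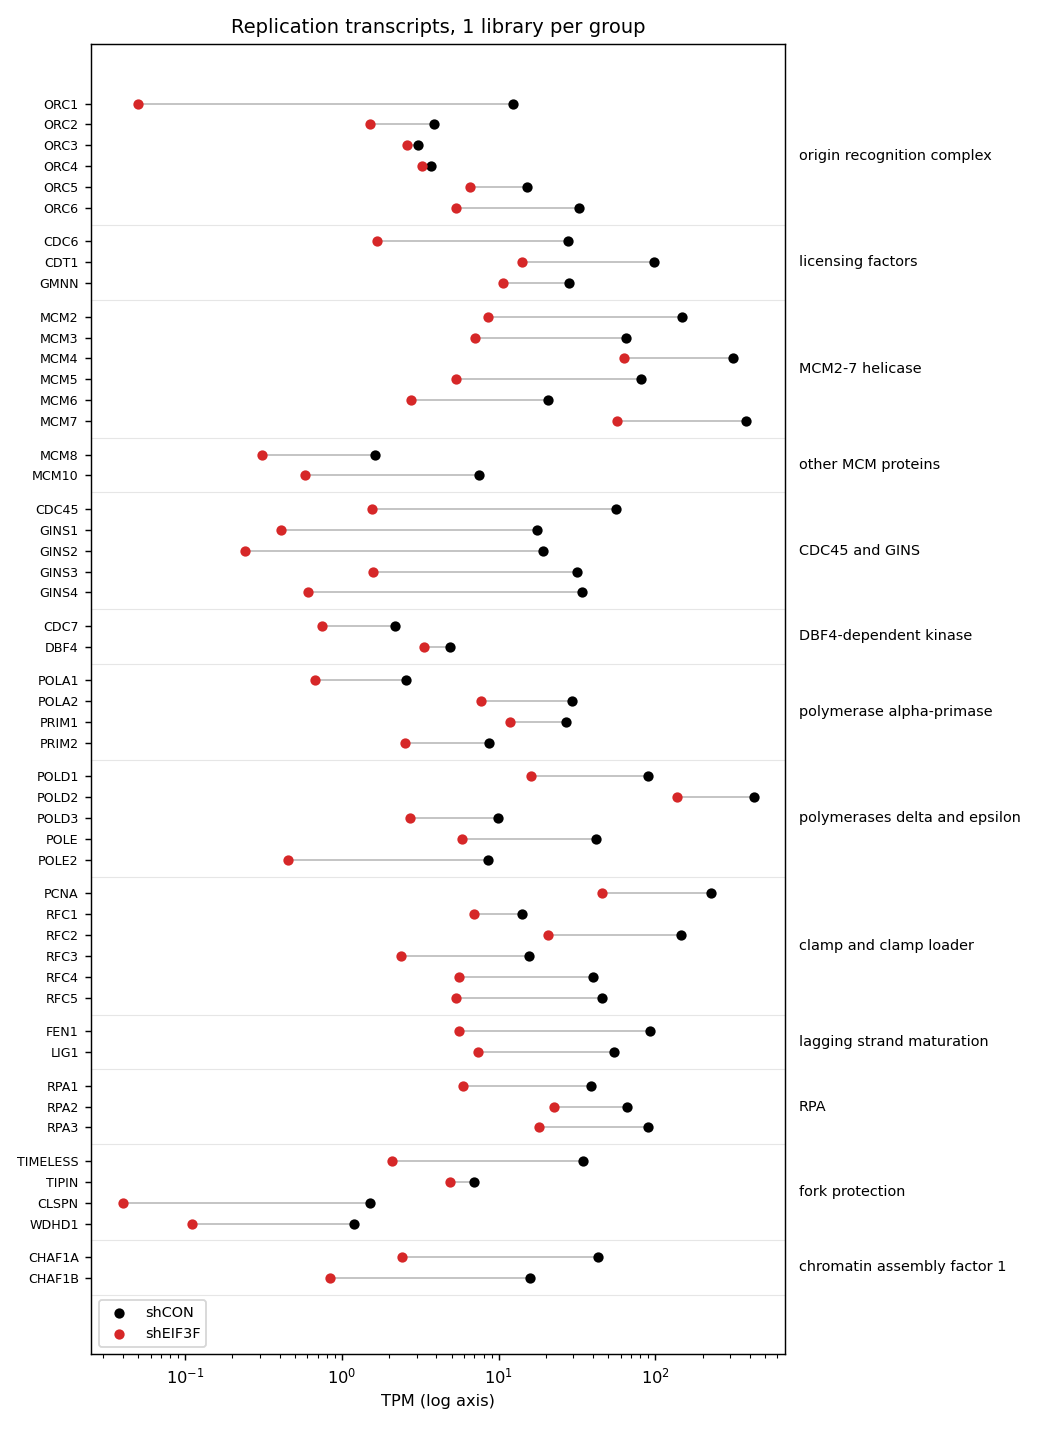
TPM of each of the 50 genes on a log axis in the shCON library (black) and the shEIF3F library (red), 1 library per group, grouped by role, with a grey line joining the pair. Every red point lies to the left of its black point, by the most for ORC1 (12.3 and 0.05 TPM) and by the least for ORC4 (3.71 and 3.22 TPM).

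Of the 50, 47 averaged at least 1 TPM across the libraries and entered the counts, and MCM8, CLSPN and WDHD1 did not. At least 2-fold lower were 40 of the 47 genes and at least 2-fold higher 0, where over all 13304 genes tested the shares were 25.5% and 8.43%. The median log2 ratio of the 47 was -2.51, and the middle of their range (the 25th to 75th percentile) ran from -3.31 to -1.49. Over all genes tested the median was -0.36, with the 25th and 75th percentiles at -1.02 and 0.27. When the genes tested were ranked by log2 ratio, 31 of the 47 lay in the lowest 5%. The 7 measured genes that did not reach 2-fold with 1 TPM added were ORC2, ORC3, ORC4, CDC7, DBF4, RFC1 and TIPIN. With 0.1 TPM added instead, ORC2 (-1.30), CDC7 (-1.43) and RFC1 (-1.01) passed the limit. Nearest to the 2-fold limit were ORC2 at -0.95 and RFC1 at -0.92 on the inner side, and POLA1 at -1.09 and ORC5 at -1.10 on the outer side.

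Centring adds 0.36 to each log2 ratio. It left 36 of the 47 genes at least 2-fold lower, with a median of -2.15, against 16.0% of all genes, and 0 at least 2-fold higher, against 14.7%. Rescaling without the 100 most abundant genes also left 36, with a median of -2.19, against 16.6% of all genes, and 0 higher, against 15.4%. In both, GMNN, ORC5, POLA1 and PRIM1 came to lie within 2-fold. With a trend against transcript GC content removed, 38 genes were at least 2-fold lower, with a median of -2.25, against 14.0% of all genes, and 0 were higher, against 13.3%. There ORC5 and POLD2 came to lie within 2-fold.

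**Figure D2:**
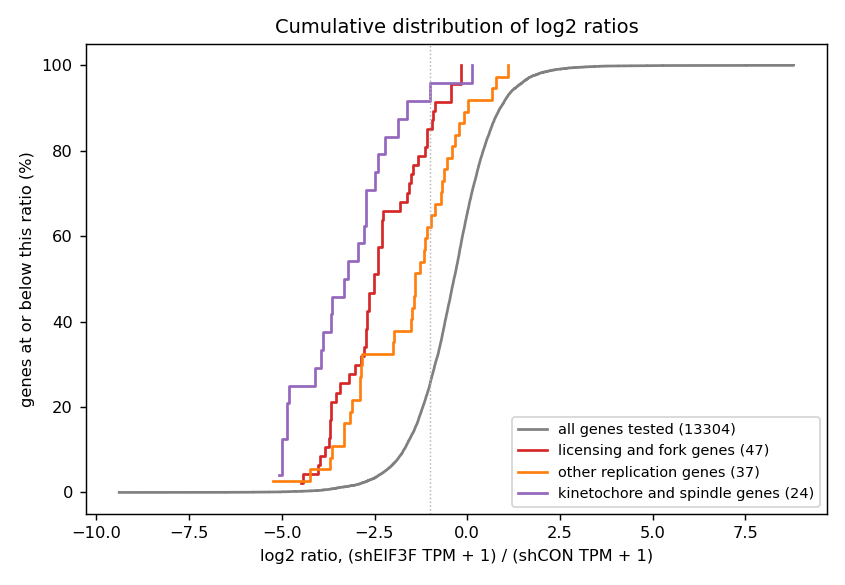
Cumulative share of genes (vertical axis, %) at or below each log2 ratio (horizontal axis) for all 13304 genes tested (grey), the 47 measured licensing and fork genes (red), 37 other replication genes (orange) and 24 kinetochore and spindle genes (purple); the dotted line marks 2-fold lower. At that line the red curve stands at 40 of 47 genes, whereas the grey curve stands at 25.5%.

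The origin recognition complex was split. ORC1, its largest subunit and an ATPase, had 12.3 TPM in shCON but 0.05 TPM in shEIF3F (log2 ratio -3.66), the smallest share left among the 50 genes. ORC6, the smallest subunit, stood at 32.7 and 5.36 TPM (-2.40). The core subunits were nearer to the control library. ORC5 was at 15.2 and 6.58 TPM (-1.10) and ORC2 at 3.86 and 1.51 TPM (-0.95). ORC3 was at 3.05 and 2.59 TPM (-0.17) and ORC4 at 3.71 and 3.22 TPM (-0.16). ORC6 was the most abundant subunit in shCON and ORC5 in shEIF3F, where ORC1 was the least abundant. With a median log2 ratio of -1.02, the complex as a whole lay at the 2-fold limit, and the median came within 2-fold on centring (-0.67) or on removal of the GC trend (-0.97). Exons of ORC2 and ORC4 overlap those of genes on the opposite strand, and the use of strand in counting is not given in the sources used here. Reads from the shared bases therefore cannot be assigned to a gene with certainty. How much of each exon is shared was not measured. In all, 22 of the 50 genes have an exon that overlaps another gene, MCM2, MCM7 and GINS2 among them, and 7 have a pseudogene named after them, so their single values are less certain. In POLA2, PRIM1, POLD1, POLD3, FEN1, TIPIN and CHAF1B an overlapping gene lies on the same strand, and the values of all of these are uncertain.

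All 3 genes that control helicase loading were at least 2-fold lower. CDC6, the ATPase that completes the loading platform, had 27.7 TPM in shCON but 1.68 TPM in shEIF3F (log2 ratio -3.42). CDT1, which brings the MCM ring to the origin, stood at 97.6 and 14.1 TPM (-2.70). GMNN encodes geminin, the protein that binds CDT1 and blocks a further round of licensing, and stood at 28.1 and 10.7 TPM (-1.32, or -0.96 after centring). CDT1 thus had 3.47 times the TPM of its inhibitor in shCON and 1.33 times in shEIF3F. CDT1 has a transcript of 64.9% GC, and its log2 ratio was -1.56 with the GC trend removed, against -3.24 for CDC6.

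Each of the 6 subunits of the MCM2-7 ring was at least 2-fold lower under all 4 scalings (as deposited, centred, rescaled and with the GC trend removed). MCM2 stood at 149 and 8.53 TPM (log2 ratio -3.97), MCM5 at 81.5 and 5.36 TPM (-3.70) and MCM3 at 64.9 and 7.11 TPM (-3.02). The remaining subunits were left at a higher share of control, with MCM7 at 376 and 56.7 TPM (-2.71), MCM6 at 20.6 and 2.76 TPM (-2.52) and MCM4 at 315 and 63.0 TPM (-2.30). Although the subunits assemble in equal numbers, their transcripts did not have equal levels. MCM7 had 18.2 times the TPM of MCM6 in shCON, and MCM4, the highest in shEIF3F, had 22.8 times that of MCM6 there. MCM6 was the lowest in both libraries. Summed over the ring, the level was 1007 TPM in shCON, of which 14.2% was left in shEIF3F (143 TPM).

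MCM10, which helps to activate the assembled helicase, stood at 7.44 and 0.58 TPM (-2.42). MCM8, a relative that acts with MCM9 in recombination, was low in both libraries, at 1.63 and 0.31 TPM.

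CDC45 and the 4 GINS genes, which turn the loaded ring into the CMG helicase, had a median log2 ratio of -4.03, the lowest of the 13 roles except with a pseudocount of 5 TPM, where it was -2.48, against -2.73 for lagging strand maturation and -2.58 for the MCM2-7 ring. CDC45 stood at 56.3 and 1.56 TPM (-4.49) and GINS4 at 33.8 and 0.61 TPM (-4.43). GINS2 stood at 19.2 and 0.24 TPM (-4.03), GINS1 at 17.6 and 0.41 TPM (-3.72) and GINS3 at 31.7 and 1.57 TPM (-3.67). Outside the group, MCM2, MCM5, FEN1 and CHAF1A had ratios within the same range. Summed over the 5 genes, 2.77% of the control level was left, against 14.2% for the MCM2-7 ring. CDC45 had 33.6% of the mean TPM of an MCM2-7 subunit in shCON and 6.52% in shEIF3F. Values below 1 TPM are deposited with 2 decimals, so their shares of control are coarse.

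The 2 listed genes of the kinase that fires licensed origins differed least of the roles, with 0 of 2 at 2-fold. DBF4, the regulatory subunit, stood at 4.89 and 3.34 TPM (-0.44), and the catalytic subunit CDC7 at 2.19 and 0.75 TPM (-0.87). At these levels the added 1 TPM pulls ratios toward 0, and with 0.1 TPM added instead CDC7 was past 2-fold (-1.43). An exon of DBF4 overlaps one of SLC25A40 on the opposite strand. The related gene DBF4B was counted with the other replication genes and is not in this role. It stood at 7.06 and 1.01 TPM (-2.00, or -1.65 after centring), and was named after its value was seen.

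**Figure D3:**
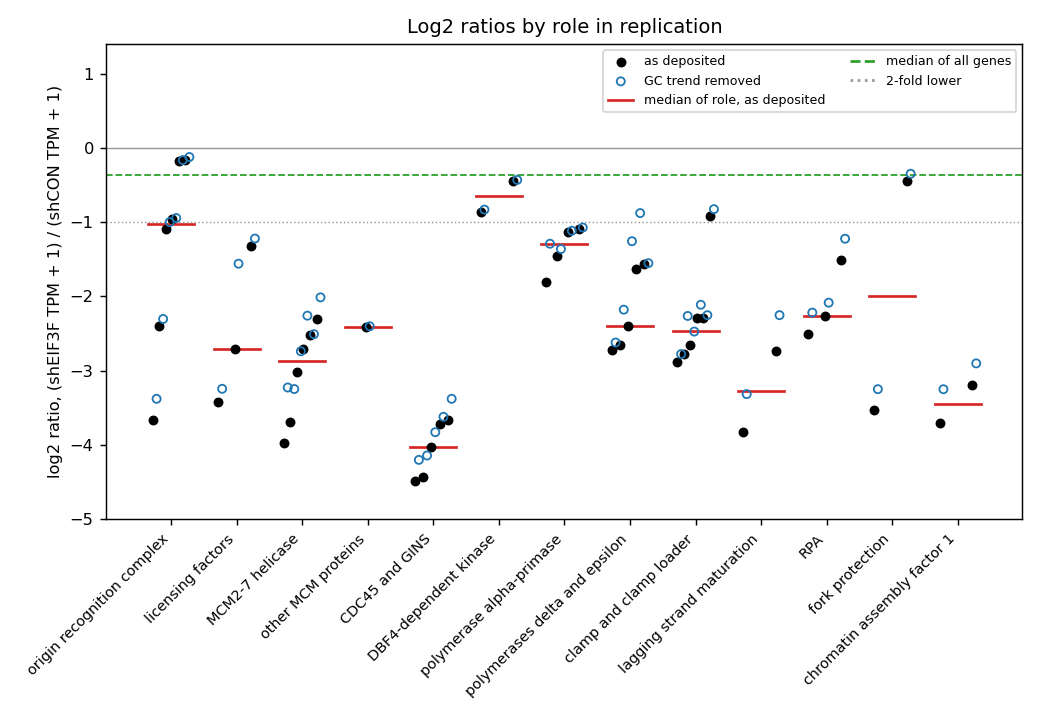
Log2 ratio (vertical axis) of the 47 measured genes by role (horizontal axis), as deposited (black) and with the GC trend removed (open blue circles); red bars are medians of each role as deposited, the green dashed line is the median of all genes (-0.36) and the dotted line marks 2-fold lower. CDC45 and GINS genes have the lowest median at this pseudocount of 1 TPM (-4.03), with MCM2 and FEN1 among their values, whereas ORC3, ORC4, DBF4 and TIPIN lie nearest to 0.

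Among the polymerases, the genes of polymerase alpha-primase, which makes the RNA-DNA primers, were lower by the least, with a median of -1.29. POLA2, the accessory subunit, stood at 29.6 and 7.75 TPM (-1.80) and PRIM2, the large primase subunit, at 8.67 and 2.52 TPM (-1.46). The catalytic primase subunit PRIM1 stood at 27.1 and 11.9 TPM (-1.13), and the catalytic polymerase subunit POLA1 at 2.55 and 0.67 TPM (-1.09). All 4 were at least 2-fold lower as deposited and with the GC trend removed, but only POLA2 (-1.45) and PRIM2 (-1.10) were after centring. An exon of PRIM1 overlaps one of NACA on the same strand, so its value is uncertain.

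The listed genes of the extending polymerases delta and epsilon had a median of -2.40, with 5 of 5 at least 2-fold lower. Once the GC trend was removed, the median was -1.55, with 4 of 5. Further subunits were counted with the other replication genes and named after their values were seen. These were POLE3 (-1.50), POLE4 at 28.2 and 26.7 TPM (-0.08) and POLD4 (1.10). POLE2, an accessory subunit of the leading strand polymerase, stood at 8.56 and 0.45 TPM (-2.72), and the catalytic subunit POLE at 41.8 and 5.79 TPM (-2.66). POLD1, the catalytic subunit of the lagging strand polymerase, stood at 89.6 and 16.2 TPM (-2.40). Its accessory subunits were left at a higher share, POLD3 at 9.97 and 2.70 TPM (-1.57) and POLD2 at 424 and 137 TPM (-1.62). POLD2 was the most abundant of the 50 transcripts in both libraries. POLD1 and POLD2 have transcripts of 65.0% and 59.1% GC, and with the GC trend removed their log2 ratios were -1.26 and -0.88.

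PCNA, the sliding clamp, stood at 226 and 45.5 TPM (-2.29). The clamp loader RFC has a large subunit, RFC1, and 4 small subunits, and these parted in the data. RFC1 was at 14.1 and 6.97 TPM (-0.92). As deposited, it lay within the 2-fold limit because of the added 1 TPM, since its TPM alone were 2.02-fold apart. With 1 TPM added, it was also within 2-fold after centring (-0.56), after rescaling (-0.53) and with the GC trend removed (-0.82). The small subunits were all at least 2-fold lower, with RFC5 at 45.3 and 5.31 TPM (-2.88), RFC2 at 147 and 20.5 TPM (-2.78), RFC4 at 40.2 and 5.55 TPM (-2.65) and RFC3 at 15.6 and 2.39 TPM (-2.29). RFC1 was the least abundant RFC subunit in shCON, whereas in shEIF3F it stood above RFC3, RFC4 and RFC5. PCNA, RFC3 and RFC5 have annotated pseudogenes named after them, and RFC4 and RFC5 overlap genes on the opposite strand.

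On the lagging strand, the flap nuclease FEN1 stood at 92.0 and 5.54 TPM (-3.83) and DNA ligase LIG1 at 54.5 and 7.36 TPM (-2.73). The single-strand binding complex RPA was lower in all 3 subunits. RPA1, the large subunit, stood at 38.6 and 5.95 TPM (-2.51), RPA3 at 90.0 and 18.0 TPM (-2.26) and RPA2 at 66.3 and 22.6 TPM (-1.51). Exons of FEN1 overlap those of FADS2 on the same strand and of TMEM258 on the opposite strand, so its value is uncertain. RPA2 has 3 annotated pseudogenes named after it.

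The fork protection pair parted. TIMELESS stood at 34.5 and 2.07 TPM (-3.53), whereas its binding partner TIPIN stood at 7.0 and 4.88 TPM (-0.44). An exon of TIPIN overlaps a ribosomal protein pseudogene, RPL9P25, on the same strand, so its value is uncertain. CLSPN, which encodes the checkpoint mediator claspin, stood at 1.51 and 0.04 TPM, and WDHD1, which links polymerase alpha to the helicase, at 1.19 and 0.11 TPM. Both of these were too low to enter the counts. CAF-1, which deposits new histones behind the fork, was lower in both listed subunits. CHAF1A stood at 43.2 and 2.40 TPM (-3.70) and CHAF1B at 15.8 and 0.84 TPM (-3.19). Its subunit RBBP4, counted with the other replication genes, was lower by less, at 124 and 46.0 TPM (-1.41, or -0.98 after rescaling). RBBP4 was named after its value was seen.

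Across the 50 genes the order of levels was partly kept, with a Spearman correlation of 0.743 between the libraries, and 8 genes were among the 10 most abundant in both. The correlation is across genes, which are not independent replicates. Log2 ratios went with transcript GC content over the 47 measured genes (Spearman's rho -0.633), as they did over 13189 genes of known GC content (-0.316). The 47 genes had a median GC content of 45.9%, below the 50.5% of all genes. Their log2 ratios also went with the shCON level (rho -0.482, against -0.346 over all genes tested), and the added 1 TPM pulls the ratios of low genes toward 0. These are descriptions of 2 libraries whose points share library and depth.

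**Figure D4:**
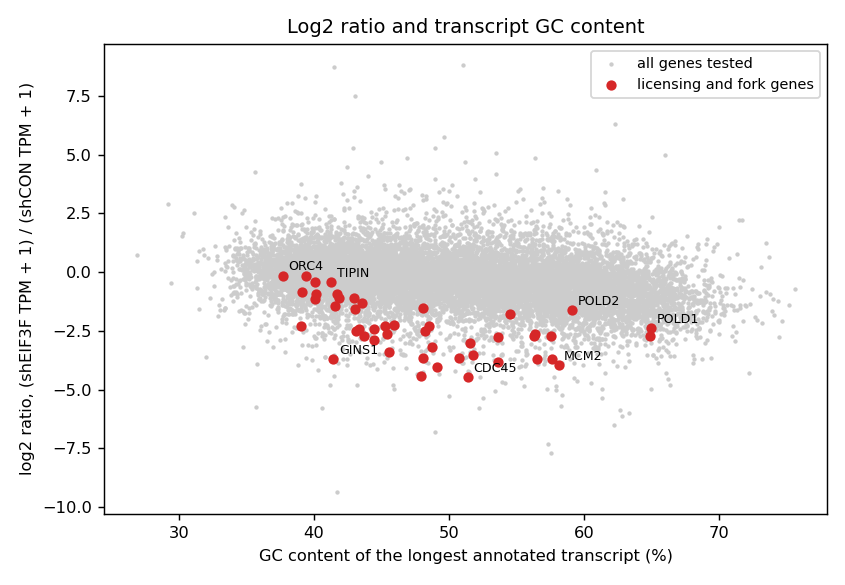
Log2 ratio (vertical axis) against the GC content of the longest annotated transcript (horizontal axis, %) for genes tested with a known GC content (grey) and the 47 measured licensing and fork genes (red), of which 7 are named. The red points span GC contents from 37.7% to 65.0%, and those nearest to 0, such as ORC4 and TIPIN, are among the GC-poor transcripts.

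Because most of these genes were lower together, the 250 bases before their starts were searched for words bound by cell cycle regulators. RefSeq windows (GRCh38.p14, first start listed per gene) were matched for 44 of the 50 genes by symbol. The E2F site was searched as TTTGGCGC, TTTCGCGC, TTTCCCGC or TTTGCCGC and the NF-Y site as CCAAT, on both strands and with overlaps allowed. An E2F word was in 12 of the 44 windows (27.3%), against 4.53% of 9310 genes tested that have a window and 2.79% of all 27305. CCAAT was in 25 windows (56.8%), against 35.6% of those genes tested. The E-box CACGTG, which MYC and related factors bind, was in 7 (15.9%, against 9.36%), and the CHR element TTTGAA of mitotic promoters in 0 (against 7.42%). The measured genes with an E2F word had a median log2 ratio of -2.59 (12 genes) and those without had -2.51 (29 genes). For CCAAT the medians were -2.52 (23 genes) and -2.53 (18 genes), and for the E-box -3.62 (6 genes) and -2.40 (35 genes), with no test of any of these differences. A match is a description of the sequence and not a bound site, and a window without a match may hold other forms of the site. The windows of CDC6 and CDC45, counted as without an E2F word, hold TTTGGCGG, which differs from TTTGGCGC in the last base.

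The windows below are shown for a helicase subunit with the most E2F words (MCM6), for the clamp (PCNA), for a GINS gene at 1.25% of control (GINS2), for a gene with an E2F word near the 2-fold limit (POLA1) and for a strongly lower gene with none (CHAF1A). Capitals mark E2F words and CCAAT on either strand, and the last base lies just before the RefSeq start.
MCM6, chr2:135876444-135876693, minus strand: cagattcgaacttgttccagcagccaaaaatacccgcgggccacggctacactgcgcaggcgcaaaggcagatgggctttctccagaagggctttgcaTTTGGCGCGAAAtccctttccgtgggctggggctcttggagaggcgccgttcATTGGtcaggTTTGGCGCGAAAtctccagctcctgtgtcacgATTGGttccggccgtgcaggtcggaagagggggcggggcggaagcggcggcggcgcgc
PCNA, chr20:5126623-5126872, minus strand: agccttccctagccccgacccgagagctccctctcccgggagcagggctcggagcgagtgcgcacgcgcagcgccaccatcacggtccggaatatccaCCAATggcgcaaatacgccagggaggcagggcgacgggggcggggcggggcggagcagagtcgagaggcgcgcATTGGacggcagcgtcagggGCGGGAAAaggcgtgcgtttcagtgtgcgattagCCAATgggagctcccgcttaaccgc
GINS2, chr16:85688955-85689204, minus strand: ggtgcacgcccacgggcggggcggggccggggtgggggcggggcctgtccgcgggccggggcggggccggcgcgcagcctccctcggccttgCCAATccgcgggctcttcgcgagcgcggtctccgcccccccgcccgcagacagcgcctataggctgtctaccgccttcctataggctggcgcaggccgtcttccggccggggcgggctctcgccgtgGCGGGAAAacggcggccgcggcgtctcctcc
POLA1, chrX:24693668-24693917, plus strand: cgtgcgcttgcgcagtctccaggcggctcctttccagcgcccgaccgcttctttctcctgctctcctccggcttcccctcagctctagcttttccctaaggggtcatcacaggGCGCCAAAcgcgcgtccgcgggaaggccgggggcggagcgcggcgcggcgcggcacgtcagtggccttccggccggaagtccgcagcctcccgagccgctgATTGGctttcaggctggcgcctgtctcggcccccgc
CHAF1A, chr19:4402390-4402639, plus strand: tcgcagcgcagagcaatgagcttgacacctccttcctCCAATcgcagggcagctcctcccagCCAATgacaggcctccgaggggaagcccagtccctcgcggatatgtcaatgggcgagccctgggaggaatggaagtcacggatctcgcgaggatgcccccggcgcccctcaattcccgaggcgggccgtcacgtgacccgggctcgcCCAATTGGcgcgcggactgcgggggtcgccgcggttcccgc
MCM6 holds 4 E2F matches in 2 overlapping pairs, starting 152 and 90 bases before the start for the first of each pair, and its transcript stood at 13.4% of control. CHAF1A holds 0 E2F words and 4 CCAAT matches, of which a pair overlaps, and stood at 5.56%. POLA1 holds an E2F word and stood at 26.3%. ORC3, not shown, holds both an E2F word and CCAAT and stood at 84.9%.

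Other genes of the replication machinery, 40 in a list chosen from textbook roles, ranged in log2 ratio from -5.22 to 1.10. Of 37 measured, 23 were at least 2-fold lower, against 25.5% of all genes tested, and 1 at least 2-fold higher, against 8.43%. Their median log2 ratio was -1.41. The histone chaperone ASF1B, which hands histones to CAF-1, stood at 91.3 and 1.47 TPM (-5.22), and RNASEH2A, the catalytic subunit of the nuclease that removes RNA from DNA, at 71.6 and 2.85 TPM (-4.24). UHRF1, which guides maintenance DNA methylation, had a log2 ratio of -3.69, and the PCNA-binding factor PCLAF -3.64. The gene at least 2-fold higher was POLD4, the smallest subunit of polymerase delta, at 47.2 and 102 TPM (1.10, or 1.46 after centring), named after its value was seen. It thus went the other way from POLD1, POLD2 and POLD3. After centring, RNASEH2B (1.13) and the topoisomerase TOP2B (1.03), also named after their values were seen, were at least 2-fold higher as well. The share of all genes at least 2-fold higher after centring was 14.7%.

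Beside these, 8 of 11 measured genes of deoxynucleotide supply were at least 2-fold lower (median -1.57), against 25.5% of all genes tested. Among them were the thymidine kinase TK1 at 234 and 2.39 TPM (-6.11) and RRM2, a subunit of ribonucleotide reductase, at 85.8 and 2.07 TPM (-4.82). Of 24 measured kinetochore and spindle genes 23 were at least 2-fold lower (median -3.27), against the same 25.5%. SPC24 of the kinetochore stood at 53.7 and 0.63 TPM (-5.07). The medians of these lists and of the licensing and fork genes were not compared by a test, since there is 1 library per group.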

How the data were processed

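RNA-seq was measured in 1 shCON and 1 shEIF3F library of 22Rv1 cells. The authors deposited TPM per gene and library, rounded to 2 decimals; per the submitters' processing notes, HISAT2, CASAVA and hg19 were used. Which gene counter, annotation and strand setting were used is not given in the sources used here. Columns were matched to groups by the sample descriptions. Entries of the same symbol were summed, and 27 date-like symbols and 6054 symbols of small RNA genes or ribosomal RNA pseudogenes (GENCODE release 29) were left out. Genes averaging at least 1 TPM were kept, and log2 ratios used a pseudocount of 1 TPM. GC content and exon overlap came from GENCODE, which describes GRCh38, so no gene coordinates are given; promoter windows are RefSeq's on GRCh38.p14. The GC trend was removed by centring ratios within 20 bins of GC content, known for 99.1% of genes. TPM keeps no depth, so no counting interval was computed.

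The members, gene lists and naming rule (EIF3F, every member, and up to 4 genes of each other list with the largest absolute log2 ratio) were chosen with earlier results of these data known. Cell type markers outside that rule are given as a check of the labels, and some of them are not reported here. Alternatives were a pseudocount of 0.1 or 5 TPM, no filter or a mean of 5 TPM or more, centred ratios, rescaled libraries, GC trend removal, the most abundant entry per symbol and all gene types kept. Software was Python 3.11.15, NumPy 2.4.6, pandas 2.3.3 and matplotlib 3.10.9, and the calculations were tested on simulated data.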

Additional observations from a re-analysis of the deposited data

How the results depend on the processing

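The count of licensing and fork genes at least 2-fold lower stayed within 1.5 times of 40 under each of the 9 alternative settings for scaling, filter, pseudocount and entries, and the count at least 2-fold higher stayed at 0. Of 415 values of single genes under an alternative, 397 stayed on their side of the 2-fold limit. Of the rest, 15 came to lie within it and 3 passed it, and 0 reversed past it. Settings of filter, entry and gene type cannot change the ratio of a gene with a single entry. Such values numbered 47 with no filter and 39 with a mean of 5 TPM or more. They numbered 47 for the most abundant entry and 47 with all gene types kept. All were fixed in advance and do not bear on stability. The values that moved came from the other settings. The origin recognition complex had a median within 2-fold with the GC trend removed (-0.97), after centring (-0.67), after rescaling (-0.69) and with a pseudocount of 5 TPM (-0.62), but a median of -2.40 when a mean of 5 TPM or more was required, which leaves only its more abundant subunits. Polymerase alpha-primase did so after centring (-0.93) and with a pseudocount of 5 TPM (-0.89), and the other replication genes with a pseudocount of 5 TPM (-0.84), which pulls low genes toward 0. The count of other replication genes at least 2-fold higher was 3 after centring and 3 after rescaling, against 1 as deposited. The shares over all genes were 14.7%, 15.4% and 8.43%. In an alternative added after seeing the data, 22 measured genes with no overlapping exon and no pseudogene named after them were kept. Of them 19 were at least 2-fold lower, against 25.5% of all genes tested. No paired analysis was possible because each group has 1 library.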

Other observations

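Of 20 measured regulators of S phase entry, 11 were at least 2-fold lower, against 25.5% of all genes, and 2 at least 2-fold higher, against 8.43%, so that the count of higher genes was near the share over all genes. The median log2 ratio was -1.50, or -1.14 after centring. The activator E2F1 had 46.8 TPM in shCON but 1.97 TPM in shEIF3F (-4.01), E2F2 at 14.7 and 0.20 TPM (-3.71) and cyclin A2, encoded by CCNA2, at 20.9 and 0.69 TPM (-3.70). Among the higher genes was E2F5, a repressor-class member, at 4.99 and 21.0 TPM (1.88), named after its value was seen. The other was CDKN1A, which encodes the cyclin-dependent kinase inhibitor p21, with a log2 ratio of 3.44.

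CENPN, a constitutive centromere gene, was within 2-fold, at 67.5 and 74.3 TPM (0.14), unlike the other measured genes of the kinetochore and spindle list as deposited; after centring TTK (-0.66) was within 2-fold as well. In deoxynucleotide supply RRM2B, the p53-inducible partner of RRM1, stood at 1.56 and 2.84 TPM (0.59), whereas RRM2 was lower. CENPN, TTK and RRM2B were named after their values were seen.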
